A study of Mus musculus with 2 samples.

Results

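The blood–brain barrier transporters described here are 10 genes, chosen by symbol among the 32285 genes counted in each of 2 single-cell libraries of mouse striatum: *Slc2a1*, *Mfsd2a*, *Slc7a5*, *Slc3a2*, *Slc16a1*, *Abcb1a*, *Abcg2*, *Abcc4*, *Slco1a4* and *Slc22a8*. All 10 were found in both count tables, and all 10 passed the filter on low counts in each of the 3 models fitted. The filter was applied over all groups of a model, including groups that a comparison does not use. The libraries are replicates 1 and 2 of a single untreated group of mice, 8 to 10 weeks old by the labels, made from dissociated striatum with a preparation labelled as enriched for glia. The strain entry of the labels reads C57/Bl6J, while their protocol names C57BL/6NTac, and the methods of the study give a younger age than the labels. The labels do not tie a library to a mouse, so an error over n = 2 is the spread between these libraries. The dissociation, which included pronase and a filter, sets which vascular cells survive, and no shares of cell types are compared here.

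The capillaries of the brain are lined by endothelial cells joined by tight junctions, so that many nutrients cross mainly through transport proteins in the endothelial membranes. GLUT1, encoded by *Slc2a1*, carries glucose, MFSD2A carries lipids with docosahexaenoic acid, and the LAT1 light chain (*Slc7a5*) pairs with the 4F2 heavy chain (*Slc3a2*) to carry large neutral amino acids. MCT1 (*Slc16a1*) carries lactate and ketone bodies with the chaperone basigin (*Bsg*). P-glycoprotein (*Abcb1a*), BCRP (*Abcg2*) and MRP4 (*Abcc4*) pump drugs and conjugates out of the cell, and *Slco1a4* and *Slc22a8* (OAT3) carry organic anions. Pericytes share the basement membrane of capillaries, smooth muscle wraps arteries and arterioles, and fibroblasts lie around larger vessels.

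By the GENCODE annotation of GRCm38, the build of the counts, the genes lie on 7 chromosomes. *Slc2a1* (ENSMUSG00000028645) spans chr4:119108711-119137983 on the plus strand and *Mfsd2a* (ENSMUSG00000028655) spans chr4:122946850-122961188 on the minus strand. *Slc7a5* (ENSMUSG00000040010) spans chr8:121881150-121907694 on the minus strand, and its partner *Slc3a2* (ENSMUSG00000010095) spans chr19:8706882-8723369 on the minus strand. *Slc22a8* (ENSMUSG00000063796) lies on the same chromosome at chr19:8591254-8611835 on the plus strand. *Slc16a1* (ENSMUSG00000032902) spans chr3:104638668-104658462 on the plus strand. *Abcb1a* (ENSMUSG00000040584) spans chr5:8660077-8748575 on the plus strand, *Abcg2* (ENSMUSG00000029802) spans chr6:58584523-58695676 on the plus strand and *Slco1a4* (ENSMUSG00000030237) spans chr6:141805440-141856199 on the minus strand. *Abcc4* (ENSMUSG00000032849) spans chr14:118482692-118706219 on the minus strand. These libraries read the 3′ ends of transcripts. In the last 500 bases of each member's coding transcripts, at most 3.55% of the 31-base words recurred in another counted gene (*Slc3a2*), and 7 members shared none.

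Promoter windows from RefSeq (GRCm38.p6, from 250 bases before to 50 after the annotated start) matched 9 of the 10 members, all but *Slc7a5*, with 12 windows in all. These RefSeq starts need not be those of the GENCODE spans above. The windows of *Slc22a8* and *Slc3a2* lie inside their spans, and that of *Abcb1a* lies outside, before its span. The windows below are those of *Slc16a1*, *Slc22a8* and *Slc3a2*, 3 of the 7 members lower in the arterial than in the capillary subcluster described further on. The other lower members were *Slc7a5*, *Slco1a4*, *Abcg2* and *Mfsd2a*. *Slc2a1* is shown beside them as 1 of the 3 members that did not pass that test. Capitals mark matches on either strand to any of 7 motifs searched, each by its letters: the GC box GGGCGG, the E-box CACGTG, the amino acid response motif TGATGNAA, the TCF motif CTTTGAT, the ETS motif CCGGAAG, the forkhead motif TGTTTAC and the TATA motif TATAAA. The matches do not overlap one another in the windows shown.
Slc16a1 (chr3:104638414-104638713, plus strand): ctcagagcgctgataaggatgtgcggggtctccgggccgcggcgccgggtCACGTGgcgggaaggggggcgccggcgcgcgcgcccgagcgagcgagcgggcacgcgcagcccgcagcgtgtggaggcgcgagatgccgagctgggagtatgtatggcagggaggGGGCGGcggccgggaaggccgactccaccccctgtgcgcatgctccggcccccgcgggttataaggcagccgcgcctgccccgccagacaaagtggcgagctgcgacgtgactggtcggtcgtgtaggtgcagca
Slc22a8 (chr19:8592932-8593231, plus strand): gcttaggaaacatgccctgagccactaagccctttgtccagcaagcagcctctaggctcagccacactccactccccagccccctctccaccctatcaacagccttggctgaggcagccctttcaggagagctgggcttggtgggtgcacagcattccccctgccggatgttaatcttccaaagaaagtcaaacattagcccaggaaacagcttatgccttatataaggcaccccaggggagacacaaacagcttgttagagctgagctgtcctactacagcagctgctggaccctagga
Slc3a2 (chr19:8713848-8714147, minus strand): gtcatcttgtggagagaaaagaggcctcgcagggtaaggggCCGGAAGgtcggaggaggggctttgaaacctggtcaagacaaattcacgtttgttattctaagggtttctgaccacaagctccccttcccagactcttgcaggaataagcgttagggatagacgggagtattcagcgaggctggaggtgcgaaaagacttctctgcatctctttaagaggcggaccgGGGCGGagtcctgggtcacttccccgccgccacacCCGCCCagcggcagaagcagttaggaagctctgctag
Slc2a1 (chr4:119108495-119108794, plus strand): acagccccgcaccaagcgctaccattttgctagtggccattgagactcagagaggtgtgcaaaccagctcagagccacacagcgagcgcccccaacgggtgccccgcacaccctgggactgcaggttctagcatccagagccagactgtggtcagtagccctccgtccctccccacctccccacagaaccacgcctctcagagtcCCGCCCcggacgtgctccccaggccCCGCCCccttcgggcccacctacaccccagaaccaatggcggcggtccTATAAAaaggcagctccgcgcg
The GC box was in 6 of the 12 member windows and in 35.7% of all 32851 promoter windows. The E-box was in 2 of the 12 windows, those of *Slc16a1* and the first window of *Abcc4*, and in 7.15% of all. The TATA letters were in 3 of the 12, the ETS letters in 2 and the forkhead letters in 1, against 13.6%, 8.86% and 3.65% of all. The amino acid response and TCF letters were in 0 of the 12 and in 3.97% and 3.73% of all. The windows of *Slc22a8*, *Mfsd2a* and *Slco1a4* and the second window of *Abcc4* held none of the 7 motifs. A match is a run of letters and not a bound site.

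The libraries held 6978 and 5437 cell barcodes with 44597660 and 37982720 UMIs, and 9 barcode sequences occurred in both. After cells under 300 genes and marked doublets were left out, 12007 cells were clustered without the members and were named from marker lists. Endothelial-like cells numbered 741 and 550 in libraries 1 and 2, mural-like cells 267 and 192, and fibroblast-like cells 17 and 15. All 11 endothelial markers, 9 mural markers and 6 fibroblast markers were higher in their own class, in both libraries, than in any of the 7 non-vascular classes. The same lists named the classes, so this describes the naming and is no separate check of it. Clusters of vascular cells also held mixed subclusters, among them 62 cells in the mural cluster with endothelial genes and a median of 15161.5 UMIs, and these were set aside. Levels are given as counts of a gene per 1000000 UMIs of the summed cells (CPM), with exact Poisson intervals that cover counting error only.

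All 10 transporters were higher in endothelial-like cells than in the mean of the 7 non-vascular classes (astrocytes, microglia, macrophages, oligodendrocytes, their precursors (OPCs), neurons and neuroblasts). This mean is of log2 levels with equal weight for each class, so classes near 0 pull it down. Their differences ran from 2.36 to 8.35 on the log2 scale. Here and below, the SE of a difference was computed from the difference and the F statistic of its test, with the library as a block. Such an SE is not the spread between the libraries. In this comparison 24.8% of the 15149 genes tested were called higher and 24.9% lower, and the median difference was 6.00 for the members and -0.15 for all genes tested (edgeR's quasi-likelihood test, p-values adjusted by Benjamini-Hochberg across the genes tested, threshold 0.05, n = 2 libraries).

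**Figure D1:**
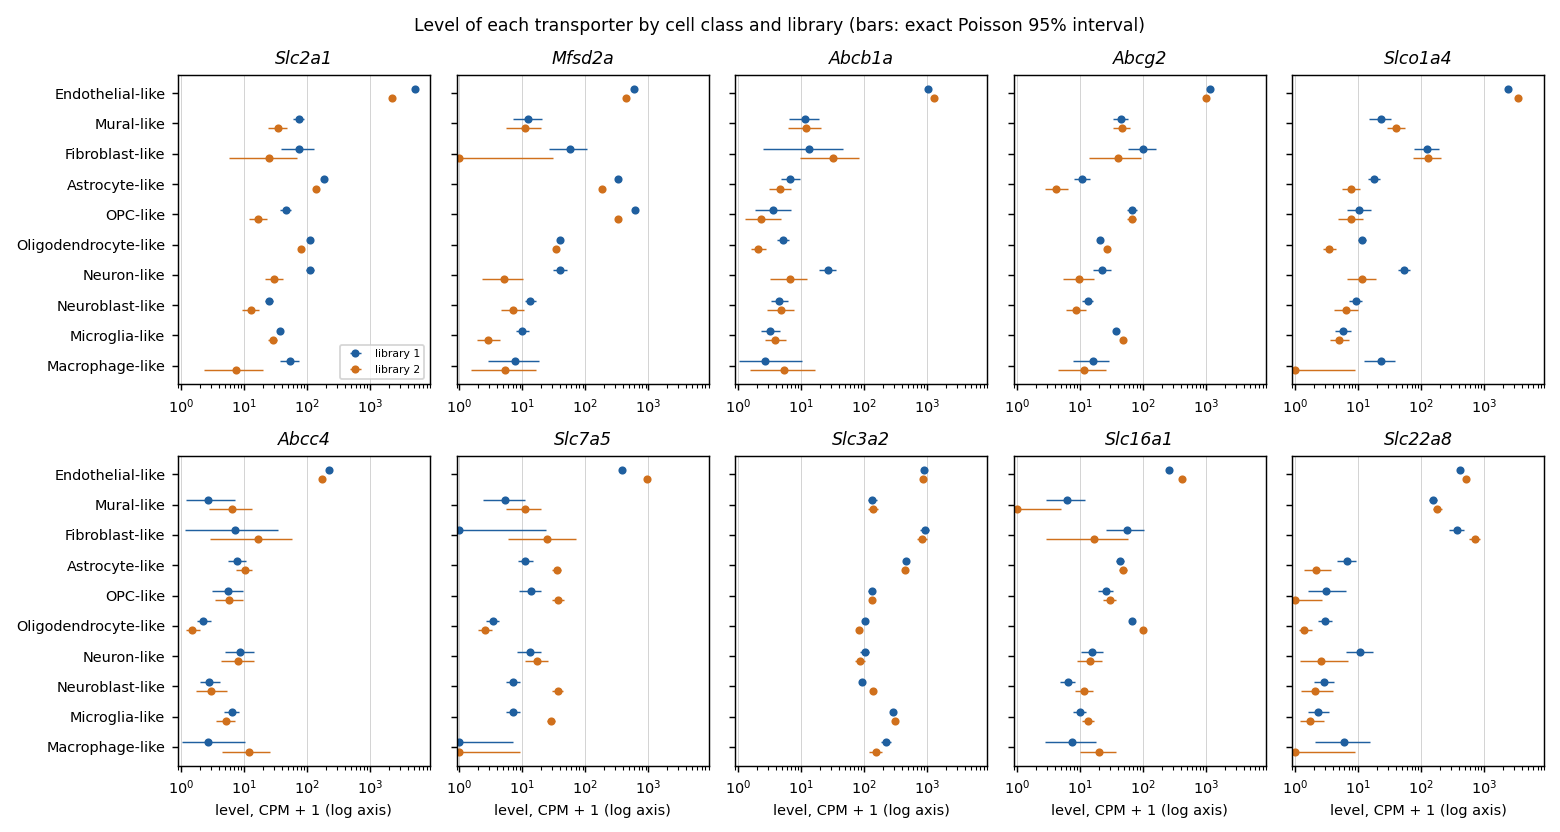
Level of each transporter (CPM + 1, log axis) in 10 cell classes, with a point for each library and bars for the exact Poisson 95% interval. Endothelial-like cells are the top row of each panel. *Mfsd2a* is also high in OPC-like and astrocyte-like cells, and *Slc22a8* in mural-like and fibroblast-like cells. *Slc3a2* is detected in every class, down to a mean of 92.5 CPM in oligodendrocyte-like cells.

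Among the nutrient carriers, *Slc2a1* was at 5269 and 2221 CPM in the endothelial-like cells of libraries 1 and 2 (3745 ± 2155, SD, n = 2). Its next class was astrocyte-like cells, at 186 and 137 CPM, above oligodendrocyte-like cells at 109.8 and 80.8 CPM, with intervals apart in both libraries. Below these, neighbouring classes down to neuroblast-like cells, at 24.0 and 11.9 CPM, overlapped in at least 1 library. The libraries do not overlap between endothelial-like cells and any other class, and the difference from the non-vascular mean was 6.18 ± 0.17 (log2, SE, adjusted p = 5.37e-15). *Slc2a1* had a UMI in 91.0% and 92.2% of endothelial-like cells. Cells under 1000 UMIs were then left out and the others thinned to 1000 UMIs, which kept 545 of 741 and 435 of 550 endothelial-like cells. Among these the shares were 96.7% (exact binomial interval 94.8 to 98.0%) and 84.1% (80.4 to 87.4%), against 15.9% and 10.9% of astrocyte-like cells and 3.93% and 1.96% of microglia-like cells.

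*Mfsd2a* was not an endothelial transcript alone in these cells. It was at 582 (interval 554 to 612) and 442 (414 to 471) CPM in endothelial-like cells and at 615 (580 to 651) and 329 (306 to 353) CPM in OPC-like cells. The order of these classes changed between the libraries, with overlapping intervals in library 1 and separate ones in library 2. Astrocyte-like cells followed at 328 and 181 CPM, below OPC-like cells in both libraries. Every other class was at or under 55.7 CPM. Among cells of at least 1000 UMIs, thinned to 1000, 41.3% and 35.6% of endothelial-like, 44.3% and 30.8% of OPC-like and 24.9% and 14.3% of astrocyte-like cells had a UMI of *Mfsd2a*, against 0.981% and 0.207% of microglia-like cells. Those shares rest on 981 of 1329 and 882 of 986 astrocyte-like, 289 of 301 and 334 of 342 OPC-like, and 1019 of 1117 and 967 of 1023 microglia-like cells. The unthinned shares, over all cells, were 61.0% and 60.0%, 88.4% and 76.3%, 41.2% and 40.9%, and 5.55% and 0.978% at median depths of 2350 and 3136, 6976 and 7240, 1742 and 2812, and 6930 and 5504 UMIs. The difference of endothelial-like cells from the non-vascular mean, which includes both of those classes, was 4.06 ± 0.20 (log2, adjusted p = 1.43e-11). That mean is of log2 levels and also holds classes such as microglia-like cells, at a mean of 5.42 CPM. It is thus not the difference from OPC-like or astrocyte-like cells, whose means were 472 and 254 CPM against 512 CPM in endothelial-like cells.

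The heterodimer partners differed in how far they spread. *Slc7a5* was at 383 and 947 CPM in endothelial-like cells, and every other class was at or under 36.3 CPM. It had 0 UMIs in macrophage-like cells, where 3 UMIs, the limit a count of 0 allows, would be 5.00 and 6.53 CPM. *Slc3a2* was at 899 and 852 CPM in endothelial-like cells, 465 and 446 CPM in astrocyte-like cells, 286 and 314 CPM in microglia-like cells, and 103 and 81.9 CPM in oligodendrocyte-like cells. The log2 difference from the non-vascular mean was 6.91 ± 0.25 for *Slc7a5* (adjusted p = 5.93e-13) and 2.36 ± 0.11 for *Slc3a2* (adjusted p = 1.07e-11), the smallest of the 10. For *Slc7a5* that mean of log2 levels includes the macrophage-like cells at 0 UMIs, which enlarges the difference. As a share of its own endothelial level, *Slc3a2* reached 51.8% and 52.3% in astrocyte-like cells, and *Slc7a5* reached 2.65% and 3.63%.

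*Slc16a1* was at 257 and 425 CPM in endothelial-like cells. Oligodendrocyte-like cells, the myelin-forming class, were second at 65.6 (interval 61.5 to 69.9) and 98.5 (93.5 to 103.6) CPM, above astrocyte-like cells at 42.4 and 47.8 CPM in both libraries. Mural-like cells were at 5.19 CPM (interval 1.90 to 11.3) in library 1, which overlaps neuroblast-like and macrophage-like cells, and had 0 UMIs in library 2. The log2 difference of endothelial-like cells was 3.99 ± 0.15 from the non-vascular mean (adjusted p = 2.09e-13). Its chaperone *Bsg* was at 19675 ± 1939 CPM (SD, n = 2) in endothelial-like cells and between 352 and 1259 CPM in the mean of each other class apart from erythroid-like cells, a log2 difference of 4.96 ± 0.09 from the non-vascular mean (adjusted p = 1.05e-16).

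Among the efflux pumps, *Abcb1a* was at 1054 and 1287 CPM there and at or under 31.6 CPM in every other class, a difference of 8.29 ± 0.20 (log2, adjusted p = 2.16e-15). Its paralog *Abcb1b* was at 0.597 ± 0.179 CPM (SD, n = 2) in endothelial-like cells and at 17.0 ± 1.31 CPM in microglia-like cells. The endothelial level rests on 2 and 1 UMIs, under the floor of 3 UMIs (1.09 and 1.41 CPM). *Abcb1b* was lower in endothelial-like cells than in the non-vascular mean by 2.44 ± 0.76 (log2, adjusted p = 0.0135). *Abcg2* was at 1186 and 1025 CPM in endothelial-like cells, a difference of 5.81 ± 0.16 (adjusted p = 5.14e-15). Its next classes with more than 20 cells a library were OPC-like cells at 66.4 and 66.0 CPM, mural-like cells at 44.1 and 45.9 CPM and microglia-like cells at 36.9 and 47.5 CPM. *Abcc4* was at 221 and 171 CPM in endothelial-like cells and at or under 15.8 CPM elsewhere, with a difference of 5.59 ± 0.16 (adjusted p = 1.42e-14).

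The organic anion carriers differed in the vessel wall. *Slco1a4* was at 2381 and 3385 CPM in endothelial-like cells, 8.35 ± 0.27 above the non-vascular mean (log2, adjusted p = 4.32e-14). Fibroblast-like cells came second at 124 and 126 CPM. The paralogs *Slco1a1*, *Slco1a5* and *Slco1a6* averaged at most 0.75 CPM in endothelial-like cells and their named subclusters, while *Slco1c1*, a carrier of thyroid hormone, was at 1540 ± 274 CPM in endothelial-like and 542 ± 134 CPM in astrocyte-like cells. *Slc22a8* was at 409 and 508 CPM in endothelial-like cells, 153 and 179 CPM in mural-like cells and 365 and 703 CPM in fibroblast-like cells, and at or under 9.62 CPM in each non-vascular class, a difference of 7.86 ± 0.25 (log2, adjusted p = 3.73e-14). It was thus high in 3 vascular groups, whereas *Slco1a4* was at most 126 CPM, *Abcg2* at most 99.1 CPM and *Abcb1a* at most 31.6 CPM in mural-like and fibroblast-like cells.

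Levels in other classes can hold RNA of endothelial cells from the suspension or from doublets, so each was set beside the 11 endothelial markers, expressed as percent of the endothelial level. These percentages are a comparison of levels, and the source of the RNA was not tested. In astrocyte-like cells the markers stood at 0.440 to 0.804% in library 1 and 0.121 to 0.374% in library 2. *Mfsd2a* (56.3 and 40.9%), *Slc3a2*, *Slc16a1* (16.5 and 11.2%), *Slc2a1* (3.53 and 6.15%), *Abcc4* (3.12 and 5.44%) and *Slc7a5* were above all 11 markers in both libraries, 6 of the 10 members. In OPC-like cells 6 members passed all markers, among them *Mfsd2a* (105.6 and 74.4%), *Slc16a1* (9.70 and 6.78%) and *Abcg2* (5.60 and 6.44%). In oligodendrocyte-like cells 5 did, led by *Slc16a1* at 25.5 and 23.2%. *Abcb1a*, *Slco1a4* and *Slc22a8* were above all 11 markers in both libraries in 0 of the 7 non-vascular classes. Neuron-like cells of library 1 had the highest summed endothelial markers among non-vascular classes, at 431 CPM against 122 CPM in library 2. *Slc2a1* in neuron-like cells was at 111 and 29.7 CPM.

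**Figure D2:**
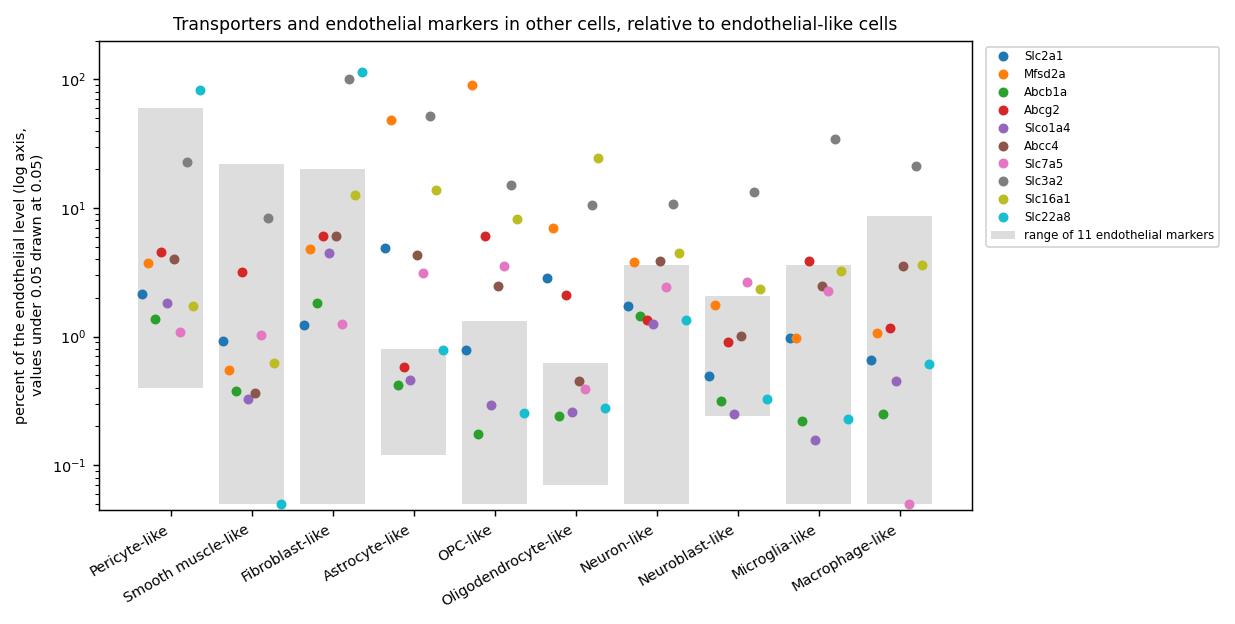
Mean over the libraries of each transporter's level in other cells as percent of its level in endothelial-like cells (log axis), with grey bars for the range of 11 endothelial markers over both libraries. *Slc22a8* in pericyte-like and fibroblast-like cells, *Mfsd2a* in astrocyte-like and OPC-like cells and *Slc3a2* in most classes lie above the markers.

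Within the vessel wall, all 10 transporters were also higher in endothelial-like than in mural-like cells. Here 15.5% of the 15149 genes were called higher and 15.8% lower, and the median difference was 5.94 for the members and 0.00 for all genes (log2). The largest estimate was *Abcb1a* at 6.81 ± 0.44 (adjusted p = 2.36e-09), from 1054 and 1287 CPM in endothelial-like cells to 10.4 and 10.9 CPM in mural-like cells. *Slc16a1* lay within that SE at 6.79 ± 0.40 (adjusted p = 1.06e-09). In libraries 1 and 2 its mural-like level rests on 6 and 0 UMIs, and that of *Abcc4* (5.82 ± 0.40) on 2 and 5. The order of the largest differences is therefore uncertain. The smallest was *Slc22a8* at 1.45 ± 0.33 (adjusted p = 0.00237), a call that DESeq2 did not give (log2 difference 1.40, adjusted p = 0.213) and that was lost when the mixed subclusters were kept (0.86, adjusted p = 0.059). The next smallest was *Slc3a2* at 2.66 ± 0.20 (adjusted p = 1.46e-08). With the mixed subclusters kept, an alternative chosen after the data were seen, all 9 other members stayed past the threshold with smaller differences, for example 2.21 in place of 6.06 for *Slc2a1* and 2.29 in place of 6.81 for *Abcb1a*.

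Mural-like cells against the non-vascular classes gave 3 members higher and 2 lower, where 20.1% and 16.3% of the 15149 genes were called. The median difference was 0.25 for the members and -0.13 for all genes. *Slc22a8* was higher by 6.41 ± 0.32 (log2, adjusted p = 3.02e-11), *Slco1a4* by 1.69 ± 0.57 (adjusted p = 0.0275) and *Abcg2* by 1.21 ± 0.29 (adjusted p = 0.00315). *Slc16a1* fell by 2.80 (SE 0.52, adjusted p = 0.000352) and *Mfsd2a* fell by 1.59 (SE 0.50, adjusted p = 0.0199) relative to the non-vascular mean. The marker percentages of mural-like cells spanned 0.311 to 37.7% in library 1 and 0.561 to 29.3% in library 2. *Esam* was the highest marker, and the medians were 0.906 and 1.20%. *Slco1a4* (0.907 and 1.16%) was above 6 and 5 of the 11 markers, and *Abcg2* (3.71 and 4.47%) was above 9 in both libraries. The source of these UMIs was not tested. Keeping the mixed subclusters made all 10 members higher, with *Mfsd2a* at 2.00 and *Slc16a1* at 1.76, so both falls rest on leaving out those cells. Leaving out every non-endothelial cell with a UMI of an endothelial marker left 107 mural-like cells, 17 of them pericyte-like. That step put *Mfsd2a* at 0.11 (adjusted p = 1) and ended the calls of *Slco1a4* (1.77, adjusted p = 0.323) and *Abcg2* (1.20, adjusted p = 0.358). Without the library as a block, *Slco1a4* (adjusted p = 0.0517) and *Mfsd2a* (adjusted p = 0.117) did not pass, and with doublets kept *Slco1a4* did not (adjusted p = 0.0737). *Mfsd2a* also did not pass at resolution 0.32 (adjusted p = 0.157) or with cells thinned to 1000 UMIs (adjusted p = 1).

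Pericyte-like cells (121 and 84) were compared with smooth-muscle-like cells (60 and 52). The model, and so its filter on low counts, also held the fibroblast-like cells and the mixed cells with endothelial genes. Of the 10 members, 3 were higher in pericyte-like cells and 0 lower, where 11.0% and 12.7% of the 8579 genes tested were called. The median difference was 1.29 for the members, also with *Slc22a8* set to the bound below, and 0.03 for all genes (log2). That median includes members with few UMIs in both groups. In libraries 1 and 2, *Slc16a1* had 4 and 0 UMIs in pericyte-like and 2 and 0 in smooth-muscle-like cells. *Abcc4* had 1 and 4 against 1 and 0, and *Slc7a5* had 1 and 5 against 3 and 4. *Slc22a8* had 155 UMIs (342 CPM, interval 291 to 401) and 139 UMIs (418 CPM, 351 to 494) in pericyte-like cells and 0 UMIs in the smooth-muscle-like cells of either library. Against the floor of 3 UMIs over both libraries of smooth-muscle-like cells, 2.61 CPM, it was at least 143-fold higher in pericyte-like cells (adjusted p = 3.27e-09). It had a UMI in 57.9% and 71.4% of pericyte-like cells and in 0 of 60 and 0 of 52 smooth-muscle-like cells, which allow shares of cells with a UMI of up to 5.00% and 5.77% (3 counts) and do not limit the share of cells expressing the gene. The smooth-muscle-like cells were the deeper group, with medians of 9693 and 9292 UMIs against 3610 and 3797. *Slc22a8* in pericyte-like cells stood at 83.7 and 82.3% of its endothelial level, above all 11 endothelial markers, of which *Esam* was highest at 59.9 and 44.0% and the median was 1.35 and 1.75%. *Slco1a4* was higher by 2.08 ± 0.43 (adjusted p = 0.00134), from 4.83 and 15.1 CPM in smooth-muscle-like cells to 35.3 and 72.2 CPM in pericyte-like cells, and *Slc3a2* by 1.12 ± 0.23 (adjusted p = 0.0011), from 74.1 and 71.9 CPM to 188 and 210.5 CPM. The summed endothelial markers were at 1179 and 944 CPM in pericyte-like and 296 and 259 CPM in smooth-muscle-like cells, and their part in the difference of *Slco1a4* was not tested. Against the rest of the mural cluster, pericyte-like cells also had 3 astrocyte, 2 neuron, 1 microglia and 1 oligodendrocyte markers raised at 2-fold or more. No such markers were raised in smooth-muscle-like cells. *Slc3a2* was at a mean of 456 CPM in astrocyte-like cells, and the part of other cells' RNA in its difference was not tested.

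Endothelial-like cells were then divided into 3 named subclusters, with 75 and 72 arterial, 220 and 170 capillary and 78 and 70 venous cells. A further 148 endothelial-like cells formed an unnamed subcluster, which entered the model, as did 94 mixed cells with mural markers. Another 458 endothelial-like cells, under 1500 UMIs, were in no subcluster. The capillary cells were named by marker levels over the arterial and venous cells, the groups they are compared with below. In total, 7 of the 10 members were lower in the arterial than in the capillary subcluster and 0 were higher, where 3.01% of the 7762 genes were called lower and 4.55% higher. The median difference was -0.70 for the members and 0.00 for all genes (log2). *Slc16a1* was at 68.6 and 136 CPM in arterial and 295 and 479 CPM in capillary cells, and fell by 1.92 (log2, SE 0.17, adjusted p = 2.95e-11). *Slc7a5* was at 179 and 275 CPM in arterial and 492 and 1214 CPM in capillary cells, and fell by 1.82 (SE 0.16, adjusted p = 3.84e-11). For both genes the arterial values of both libraries lay below the capillary ones, and library 2 was the higher library in each subcluster.

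*Slc22a8* was at 152 and 163 CPM in arterial and 437 and 584 CPM in capillary cells, and fell by 1.67 (SE 0.15, adjusted p = 5.44e-11). *Slc3a2* was at 541.5 and 366 CPM in arterial and 1006 and 1044 CPM in capillary cells, and fell by 1.15 (SE 0.13, adjusted p = 3.15e-08). Both partners of the amino acid carrier were thus lower in arterial cells. *Slco1a4* fell by 0.73 (SE 0.09, adjusted p = 2.82e-07), *Abcg2* by 0.68 (SE 0.11, adjusted p = 1.49e-05) and *Mfsd2a* by 0.68 (SE 0.12, adjusted p = 0.000107). *Slc2a1* was at 5696 and 2352 CPM in arterial and 5148 and 2198 CPM in capillary cells, *Abcb1a* at 949 and 1303 against 1096 and 1337 CPM, and *Abcc4* at 279.8 and 198 against 229 and 164 CPM. None of these 3 passed the test (adjusted p from 0.386 to 0.739).

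**Figure D3:**
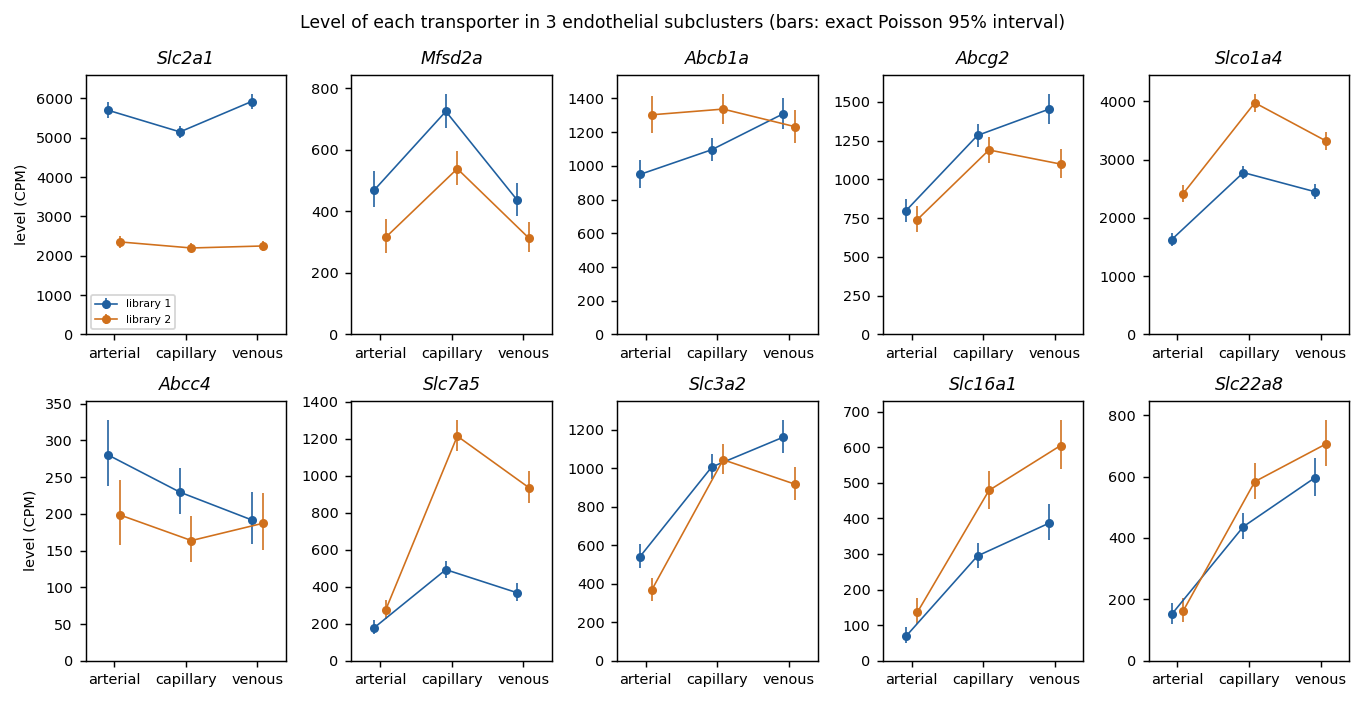
Level of each transporter (CPM) in the arterial, capillary and venous endothelial subclusters, with a line for each library and bars for the exact Poisson 95% interval. In both libraries *Slc7a5*, *Slc3a2*, *Slc16a1*, *Slc22a8*, *Slco1a4* and *Abcg2* are lowest in arterial cells and *Mfsd2a* is highest in capillary cells.

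Venous against capillary cells gave only 1 member past the threshold, *Mfsd2a*, where 1.80% of the 7762 genes were called lower and 2.24% higher. The median difference was 0.06 for the members and 0.01 for all genes. *Mfsd2a* was at 436 and 313 CPM in venous and 725 and 539 CPM in capillary cells, and fell by 0.73 (SE 0.12, adjusted p = 8.30e-05). *Slc22a8* (596 and 707 CPM in venous cells, adjusted p = 0.0532) and *Slc16a1* (387 and 605 CPM, adjusted p = 0.0773) were highest in venous cells in both libraries without passing the test.

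Arterial against venous cells gave 6 members lower and 0 higher, where 4.92% of genes were called lower and 5.33% higher. The median difference was -0.64 for the members and -0.01 for all genes. *Slc16a1* fell by 2.31 (SE 0.16, adjusted p = 1.35e-13), *Slc22a8* by 2.06 (SE 0.15, adjusted p = 1.54e-13), *Slc7a5* by 1.45 (SE 0.17, adjusted p = 1.62e-08) and *Slc3a2* by 1.20 (SE 0.14, adjusted p = 1.25e-08). *Abcg2* fell by 0.74 (SE 0.11, adjusted p = 3.34e-06) and *Slco1a4* by 0.54 (SE 0.09, adjusted p = 6.56e-05). *Mfsd2a*, at 469 and 316 CPM in arterial cells, did not pass here (adjusted p = 0.896). The 3 comparisons share subclusters, so their counts are not independent.

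Depth and summed mural markers differed between the subclusters. Median depth was 6299 and 4773 UMIs in arterial, 3295 and 3323 in capillary and 5743 and 5276 in venous cells. With all cells thinned to 1000 UMIs, 7 members were again lower in arterial than in capillary cells and 6 lower in arterial than in venous cells. The summed mural markers were at 164 and 382 CPM in arterial, 245 and 419 in capillary and 364 and 384 CPM in venous cells, against 37977 and 39160 CPM in pericyte-like cells. Without the library as a block, *Slc16a1*, *Slc22a8* and *Slc3a2* stayed past the threshold in arterial against capillary and in arterial against venous cells, 3 members in each, and 0 in venous against capillary cells (1 at an unadjusted p under 0.05; 1 with DESeq2, which kept the block). In arterial against venous cells *Slco1a4* also did not pass at resolution 0.32 (adjusted p = 0.141). Both subclusters of a comparison come from the same suspension, and the libraries differed in level, as described next.

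Among the members, the libraries themselves differed most in *Slc2a1* and *Slc7a5* in endothelial-like cells. Other members differed less there, such as *Slc16a1* at 257 and 425 CPM and *Slco1a4* at 2381 and 3385 CPM in libraries 1 and 2. *Mfsd2a* was at 328 and 181 CPM in astrocyte-like and 615 and 329 CPM in OPC-like cells. The Poisson intervals of the libraries were apart in each of these pairs. In endothelial-like cells the ratio of library 1 to library 2 was 2.37 for *Slc2a1* (95% counting interval 2.30 to 2.45) and 0.404 for *Slc7a5* (0.375 to 0.436). Among 3719 genes at 50 CPM or more, with a median ratio of 0.978, 1.02% and 0.860% lay at least as far from 1. The direction was the same in each endothelial subcluster, with ratios of 2.34 to 2.63 for *Slc2a1* and 0.392 to 0.650 for *Slc7a5*. It was also the same in astrocyte-like and OPC-like cells: *Slc7a5* was at 10.1 and 34.3 CPM in astrocyte-like cells (ratio 0.295) and at 12.5 and 36.3 CPM in OPC-like cells (ratio 0.343), and *Slc2a1* had ratios of 1.36 and 2.83 in these classes. *Slc7a5* went the other way in oligodendrocyte-like cells, at 2.38 and 1.54 CPM (35 and 23 UMIs). *Slc3a2*, the partner of *Slc7a5*, had a ratio of 1.05 in endothelial-like cells. With 1 library on each side the ratio has no replicate, and mouse, dissociation and sequencing cannot be told apart.

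**Figure D4:**
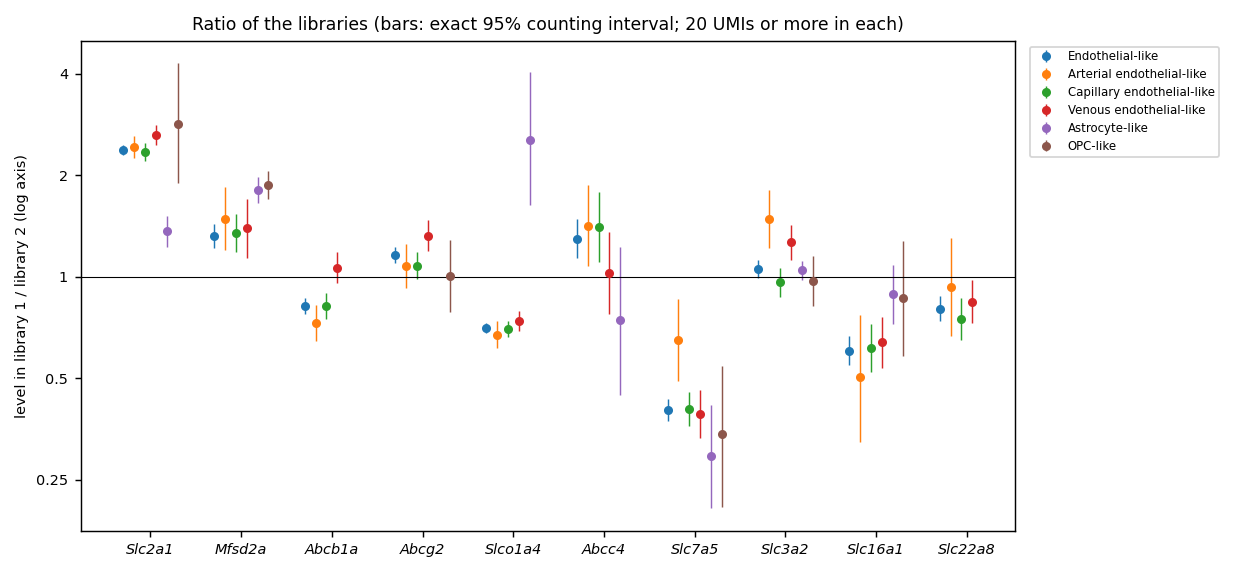
Ratio of the level in library 1 to that in library 2 for each transporter (log axis, line at 1), in 6 groups of cells with at least 20 UMIs in each library and bars for the exact 95% counting interval. *Slc2a1* lies above 1 and *Slc7a5* below 1 wherever plotted, with intervals clear of 1.

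Among 25 other transport genes of the barrier, 18 were higher and 5 lower in endothelial-like cells than in the non-vascular classes, and 17 were higher and 2 lower than in mural-like cells. Over all genes, 24.8% and 24.9% were called higher and lower in the first comparison and 15.5% and 15.8% in the second. The largest rises against mural-like cells were *Slc38a5*, a glutamine carrier, at 7.83 ± 0.43 (log2, adjusted p = 4.91e-10), *Slco1c1* at 5.97 ± 0.48 (adjusted p = 2.99e-08) and the thiamine carrier *Slc19a3* at 5.62 ± 0.50 (adjusted p = 1.83e-07). In mural-like cells of library 1, *Slc38a5* and *Slc19a3* had 2 UMIs each (1.73 CPM), under the floor of 3 UMIs (2.59 CPM). The sizes of these 2 rises are therefore uncertain. The 2 lower genes were *Ager*, which fell by 2.67 (SE 0.85, adjusted p = 0.0235), and the creatine carrier *Slc6a8*, which fell by 1.11 (SE 0.29, adjusted p = 0.00681). *Ager* had only 2 and 4 UMIs in the endothelial-like cells of libraries 1 and 2. *Bsg* was higher by 5.01 ± 0.18 (adjusted p = 8.07e-12), and *Abcb1b* did not pass (adjusted p = 0.197). Against the non-vascular classes, mural-like cells had 4 of the 25 higher and 7 lower, where 20.1% and 16.3% of all genes were called.

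Of this second list, 20 genes were tested within the endothelium. In arterial against capillary cells 10 were lower and 1 higher, in arterial against venous cells 10 lower and 3 higher, and in venous against capillary cells 1 lower and 2 higher. Over all genes, 3.01% were called lower and 4.55% higher in the first of these, 4.92% and 5.33% in the next, and 1.80% and 2.24% in the last. *Slc38a5* was at 3.61 and 26.3 CPM in arterial, 228 and 384 CPM in capillary and 688 and 928 CPM in venous cells of libraries 1 and 2. Its arterial level in library 1 lies under the floor of 3 UMIs (5.41 CPM). *Slc38a5* was higher in venous than in capillary cells by 1.46 ± 0.14 (log2, adjusted p = 2.35e-09). In contrast to the 10 lower genes, *Slc6a6*, a taurine carrier, was the 1 gene higher in arterial than in capillary cells, by 0.97 ± 0.11 (adjusted p = 2.21e-08). *Bsg* fell by 0.43 (SE 0.09, adjusted p = 0.000781) in arterial against capillary cells. In pericyte-like against smooth-muscle-like cells 5 of 20 were higher and 0 lower, where 11.0% and 12.7% of all genes were called.

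As a description, the genes whose levels most resembled those of 3 members were ranked by Pearson's r of log2(CPM + 1) over 24 sums, 12 groups in each library, among 8969 genes at 50 CPM or more in a sum. These sums share libraries and cells of like depth, and no test was made. For *Slc2a1* they were *Srarp*, *Clic5*, *Vwa1*, *Slc30a1* and *Rassf9* (r from 0.941 to 0.953). For *Abcc4* they were *Gm9917*, *Tie1*, *Ifi44*, *Bsg* and *Sgms1* (0.95). For *Mfsd2a*, which was also high in OPC-like and astrocyte-like cells, they were *Rgcc*, *Cd320*, *Klhl5*, *Dusp11* and *Slc38a3* (0.885 to 0.922).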

How the data were processed

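Single-cell RNA-seq of mouse striatum was deposited as 2 gene-by-barcode tables of UMI counts. The authors made these counts with Cell Ranger, named as version 4.0 in the submitters' processing notes and 4.0.0 in the matrix header (the study's methods name an earlier version), on mm10 (GRCm38), and the deposited values are raw counts of 32285 genes. The libraries held 44597660 and 37982720 UMIs in 6978 and 5437 barcodes. No value column was left unmapped (0).

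From these counts, cells with at least 300 genes were kept and doublets marked by Scrublet (expected rate 6%; 96 and 159 cells) were removed. The cells were integrated and clustered in Seurat 5.3.0 (2000 variable genes, 30 components, resolution 0.08). Vascular cells with at least 1500 UMIs were clustered again (15 components, resolution 0.6 for endothelial and 0.3 for mural cells). The 10 members and 25 further transport genes took no part in the clustering. A cluster was named from at least 3 markers at 2-fold or more over the rest (1.25-fold for vessel segments, 10 CPM added). A marker of the list also had to be among the cluster's 50 leading genes. The capillary subclusters did not meet this rule against the rest. The deeper had 2 capillary markers raised, and the shallower had 3 but no listed marker among its leading genes. Both were named from at least 3 capillary markers at 1.25-fold or more over the arterial and venous subclusters. The shallower of them (94 and 58 cells, median 2331.5 UMIs) also had 3 astrocyte markers raised. These thresholds, and the removal from the class sums of 112 endothelial and 65 mural cells in mixed subclusters, were set after the data were seen. The members and lists were chosen with earlier results of these data known.

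UMIs were summed per library and group, and tested with edgeR 4.0.16 (quasi-likelihood, TMM, filterByExpr, library as a block, Benjamini-Hochberg over all genes, threshold 0.05). The block follows from the design, because both groups of a comparison come from 1 suspension. The study itself tested single cells. On simulated sums, edgeR recovered 100% of 2-fold changes in endothelial-like against non-vascular cells (13986 genes), 51% in arterial against capillary cells (7525 genes) and 46% in pericyte-like against smooth-muscle-like cells (8180 genes), and 100%, 100% and 99% of 4-fold changes. The changed genes were drawn above a minimum mean level. All groups shared the same other means, with a single dispersion and no library effect. These shares thus do not give the power for members with few UMIs in the groups compared. Levels carry exact Poisson 95% intervals and shares exact binomial ones, with 3 counts as the limit beside a count of 0, which cover counting error only.

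All 10 members are named. Of the second list, the rule names the 3 largest rises and falls past the threshold in endothelial-like against mural-like cells, with *Bsg*, *Abcb1b*, *Slco1c1* and *Slc38a5*. *Slc6a6* and the paralogs *Slco1a1*, *Slco1a5* and *Slco1a6* were chosen after their values were seen. Alternatives were DESeq2 1.42.0, no block, library sizes alone, no filter on low counts, at least 500 genes, mitochondrial share under 20%, doublets kept, a resolution of 0.32, thinning to 1000 UMIs (1491 cells under this depth left out), cells with an endothelial marker UMI left out, and each library left out.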

Additional observations from a re-analysis of the deposited data

Results flagged for a closer look

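*Slc3a2* was at 883 CPM (mean of the libraries) in the fibroblast-like cells, from 929 and 838 CPM in 17 and 15 cells. *Slc22a8* was at 534 CPM in the same cells, from 365 and 703 CPM. Both were singled out because these cells entered no comparison with the other classes, and because both levels lay above the limit that a count of 0 allows (18.6 and 23.7 CPM) and, as a share of the endothelial level, above all 11 endothelial markers in both libraries. The difference from endothelial-like cells was not tested. Against the rest of the mural cluster, these cells also had 7 oligodendrocyte, 3 astrocyte and 2 microglia markers raised at 2-fold or more. Their summed mural markers were at 5343 and 7214 CPM. The part of other cells' RNA in the 2 levels was not tested. *Slc22a8* had a UMI in 12 of 17 and 14 of 15 fibroblast-like cells, against 0.806% and 0.391% of microglia-like cells.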

How the results depend on the processing

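Over the 42 pairs of a member and a comparison in which it was called, 471 values under the alternatives were kept, 18 lost the call, 17 moved when a library was left out and 3 reversed. A tested value was kept when it held its direction and side of the threshold. Values with a library left out had no test. They were kept when they held their direction and lay closer to the main value than the SD of the 2 such values. That limit widens with the gap between the 2 values, so a kept value does not show that the libraries were close. The reversals were all in mural-like against non-vascular cells: *Slc16a1* at 1.76 and *Mfsd2a* at 2.00 (log2) with the mixed subclusters kept, and *Mfsd2a* at 0.11 without cells holding an endothelial marker UMI. Members called there numbered 10 with the mixed subclusters kept, 2 without those cells and 3 without the replicate block, against 5. Without the replicate block, 3 members were called in arterial against capillary cells (7 with it), 3 in arterial against venous cells (6 with it) and 0 by edgeR in venous against capillary cells (1 at an unadjusted p under 0.05). Venous against capillary cells gave 3 members with mitochondrial share under 20%, 3 at a resolution of 0.32 and 2 after thinning, against 1, and pericyte-like against smooth-muscle-like cells gave 5 at 500 genes, against 3. The causes were not tested. The mean over cells put *Slc3a2* at 824 CPM in endothelial-like cells, against 876. It also shifted other members, such as *Slco1a4* to 3368 CPM against 2883 CPM, within the SD of 709 CPM between the libraries. The shares that follow leave out *Slco1a4*. Over the endothelial-like cells with at least 1000 UMIs, thinned to 1000, the mean shares with a UMI were 90.4% for *Slc2a1*, 38.5% for *Mfsd2a*, 69.4% for *Abcb1a*, 64.6% for *Abcg2*, 44.9% for *Slc7a5*, 54.9% for *Slc3a2*, 24.3% for *Slc16a1*, 34.6% for *Slc22a8* and 15.5% for *Abcc4*.

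Counts over all genes fell after thinning to 3705, 2260, 2159, 195, 56, 169 and 507 in turn (endothelial-like against non-vascular and mural-like, mural-like against non-vascular, arterial and venous against capillary, arterial against venous, pericyte-like against smooth-muscle-like), from 7532, 4752, 5517, 587, 314, 796 and 2032. Without cells holding an endothelial marker UMI they were 2831 and 1737 in endothelial-like against mural-like and mural-like against non-vascular cells. DESeq2 called 269, 92, 354 and 1254 in the 4 comparisons of subclusters, and edgeR without the replicate block 179, 31 and 270 in the 3 comparisons of endothelial subclusters. A mitochondrial share under 20% gave 920 and 728 against capillary cells, and keeping doublets gave 184 in venous against capillary cells. Leaving out a library leaves no residual degrees of freedom, so it gave fold changes with no test. Pericyte-like against smooth-muscle-like cells was not run at a resolution of 0.32 or without cells holding an endothelial marker UMI, since too few cells remained.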
